A study of Homo sapiens with 39 samples.

Results

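The 10 genes ID1, ID2, ID3, BAMBI, SKI, SKIL, SMAD6, SMAD7, LDLRAD4 and TGFBI encode products that answer to, restrain or report signalling by TGF-beta and bone morphogenetic proteins (BMPs). They were taken by symbol from 57773 Ensembl identifiers. Several were chosen by their differences from DMSO with GSK-J4 or ZnSO4 in these libraries, so their differences between treated and DMSO cells are given as values with no p. The cells are JJN3, an established human multiple myeloma line, here 1 line of malignant plasma cells grown in RPMI with 10% FCS. They were exposed to GSK-J4, an inhibitor of the KDM6 histone H3K27 demethylases, to ZnSO4, a source of zinc, or to the vehicle DMSO for 1, 3, 6 or 24 h, and a further group, T0, was labelled as the start. Each of these 13 groups had 3 libraries of bulk RNA. The doses, and whether T0 cells saw DMSO, are not stated in the labels.

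TGF-beta and activins signal through receptor kinases that phosphorylate SMAD2 and SMAD3, and BMPs through related receptors that phosphorylate SMAD1, SMAD5 and SMAD9. Both branches join SMAD4 in the nucleus and switch on genes that dampen the pathway again: BAMBI is a receptor-like membrane protein without a kinase domain, SMAD6 and SMAD7 are inhibitory SMADs, LDLRAD4 is a membrane protein that holds back SMAD2 and SMAD3, and SKI and SKIL are nuclear corepressors of SMAD complexes. ID1, ID2 and ID3 are classical BMP targets whose proteins bind E proteins, a class of basic helix-loop-helix factors, and keep them off DNA, and TGFBI encodes a secreted matrix protein. In bone marrow, TGF-beta and activins are known to hold back bone formation in myeloma, and BMPs can stop the growth of myeloma cells.

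Library totals were 4347745 to 10695671 counts (median 6010529). Of all identifiers 14460 had counts enough to be tested, and 9 of the 10 genes were among them. Levels are CPM (a gene's counts scaled to library size with TMM factors), differences are log2 fold changes (log2FC) with their standard error, and n is 3 libraries per group throughout. All 8 plasma cell markers had counts in every library (JCHAIN 9424 to 11563 CPM), whereas the T cell marker CD3D had none in 38 of 39 libraries and the myeloid marker LYZ none in 33. The collagen genes COL1A1, COL1A2 and COL3A1, markers of stromal cells, had counts in every library. The epithelial marker EPCAM stood at 32.3 to 55.6 CPM by library totals alone. Mitochondrial transcripts made up 4.38 to 5.54% of counts at 24 h and 2.92 to 3.90% before. The labels do not say that the 3 libraries of a group came from separate cultures, so the p-values speak for the spread of these libraries, which may be technical. Exons of ID2 overlap the antisense gene ID2-AS1 and those of LDLRAD4 the antisense gene AP001010.1 in GENCODE 29. The strand setting of the counting is not given, so reads of these pairs cannot be told apart.

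Promoters of BAMBI and SKIL, which were higher with GSK-J4 at 3, 6 and 24 h, and of ID1 and ID3, which were lowest with GSK-J4 at 6 h, are shown as the 250 bases before the RefSeq start in GRCh38.p14, read 5′ to 3′ along the gene. They lie at chr10:28677271-28677520 (plus strand), chr3:170357465-170357714 (plus strand), chr20:31605039-31605288 (plus strand) and chr1:23559502-23559751 (minus strand). Capitals mark matches, on either strand, to the SMAD motifs GGCGCC, GTCTAGAC and CAGACA, to TGCACNC or TGCGCNC, the zinc-sensing element bound by MTF1, and to TGACGTCA, the cAMP response element.
BAMBI: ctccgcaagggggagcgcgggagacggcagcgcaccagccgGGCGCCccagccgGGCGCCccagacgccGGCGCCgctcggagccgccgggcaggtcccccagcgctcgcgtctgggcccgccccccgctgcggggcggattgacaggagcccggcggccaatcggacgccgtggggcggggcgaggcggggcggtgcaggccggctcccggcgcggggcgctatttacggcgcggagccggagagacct
SKIL: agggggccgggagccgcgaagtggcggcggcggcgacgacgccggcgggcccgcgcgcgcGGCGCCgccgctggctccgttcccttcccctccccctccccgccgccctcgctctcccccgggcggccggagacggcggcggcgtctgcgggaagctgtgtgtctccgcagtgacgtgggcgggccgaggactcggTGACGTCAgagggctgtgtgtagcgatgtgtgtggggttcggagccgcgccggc
ID1: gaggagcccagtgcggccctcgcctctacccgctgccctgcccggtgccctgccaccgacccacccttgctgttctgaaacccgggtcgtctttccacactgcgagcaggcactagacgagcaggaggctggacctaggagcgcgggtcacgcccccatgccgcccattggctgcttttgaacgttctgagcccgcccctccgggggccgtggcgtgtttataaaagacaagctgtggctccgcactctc
ID3: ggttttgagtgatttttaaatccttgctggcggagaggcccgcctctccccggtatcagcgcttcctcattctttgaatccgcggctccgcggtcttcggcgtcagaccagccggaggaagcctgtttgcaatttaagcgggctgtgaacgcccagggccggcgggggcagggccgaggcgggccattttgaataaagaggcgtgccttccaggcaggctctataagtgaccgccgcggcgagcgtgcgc
The BAMBI window held GGCGCC 3 times, beginning at −209, −196 and −181 from the start. Of 35116 promoter windows of the same length, 16.4% held GGCGCC at least once and 0.527% held it 3 or more times. The bases G and C made up 81.2% of the BAMBI window, and the windows compared were not matched for that share. The SKIL window held GGCGCC at −190 and TGACGTCA at −54, the second found in 1.65% of windows. No motif matched in the ID1 and ID3 windows, nor in that of ID2. SMAD6, TGFBI and 1 of the SMAD7 windows each held 1 match to the zinc element, as did 3 of the LDLRAD4 windows, and 24.8% of all windows hold it. SMAD6 also held GTCTAGAC (0.182% of windows) and TGFBI also held GGCGCC. Of the 10 genes 9 are in the promoter table, LDLRAD4 with 9 windows and SMAD7 with 3, and CAGACA, present in 13.6% of all windows, was found only in LDLRAD4 among the windows searched for these 9 genes. A match describes these letters and does not show binding, and a missing match speaks only for the 250 bases searched.

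Per kilobase of exon in T0 cells, ID2 had the highest level of the 10 genes, 14.3 CPM per kb, which 74.6% of 14131 tested genes with a length fell below. BAMBI followed at 10.6, SKIL at 7.51 and SKI at 7.04 CPM per kb. ID1 reached 3.99, SMAD7 3.70, ID3 1.88 and LDLRAD4 0.374 CPM per kb. TGFBI, at 0.175 CPM per kb, stood above 3.06% of those genes, and SMAD6 was lower still at 0.00767 CPM per kb. Over the 13 groups, the ratio of the highest to the lowest group mean was 9.27 for BAMBI, 4.95 for ID2, 4.62 for TGFBI, 4.42 for ID1, 4.30 for SKI, 3.51 for SMAD7, 3.00 for ID3, 2.15 for LDLRAD4 and 1.85 for SKIL.

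BAMBI, the pseudoreceptor, had the widest range, and its highest levels were all in GSK-J4 cells. At 1 h it had 17.8, 21.5 and 19 CPM in GSK-J4 cells, 16, 16.1 and 17.6 CPM in ZnSO4 cells and 19.1, 17 and 13.5 CPM in DMSO cells. At 3 h it had 79, 76.5 and 76.7 CPM in GSK-J4 cells, 29.9, 30.3 and 27.8 CPM in ZnSO4 cells and 25, 19.8 and 23.8 CPM in DMSO cells. Both treatments overlapped DMSO at 1 h, but by 3 h every GSK-J4 library stood far above every other, with the ZnSO4 libraries just above DMSO. At 6 h BAMBI peaked with 159, 152 and 149 CPM in GSK-J4 cells, against 19.9, 19.2 and 17.9 CPM in ZnSO4 cells and 29.6, 28.8 and 16.6 CPM in DMSO cells. Replicate 3 of DMSO at 6 h, the low one, lay below all ZnSO4 libraries, while the other two DMSO libraries lay above them. At 24 h the values were 46.7, 45.6 and 49.97 CPM in GSK-J4 cells, 32.8, 29.5 and 38.7 CPM in ZnSO4 cells and 29.9, 34.5 and 29.1 CPM in DMSO cells, so the GSK-J4 libraries were still apart while ZnSO4 and DMSO overlapped.

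The log2FC of BAMBI with GSK-J4 over DMSO was 0.21 ± 0.14 at 1 h, 1.76 ± 0.11 at 3 h, 2.62 ± 0.10 at 6 h and 0.60 ± 0.11 at 24 h. Without replicate 3 of DMSO the 6 h value was 2.39, and without replicate 1 it was 2.77. With ZnSO4 over DMSO it was −0.01 ± 0.14, 0.36 ± 0.12, −0.40 ± 0.13 and 0.10 ± 0.12 at the 4 times in order. The ZnSO4 value at 6 h became −0.62 without replicate 3 of DMSO and −0.25 without replicate 1. In order of group means, GSK-J4 at 6, 3 and 24 h came first, and the spread of ZnSO4 and DMSO at 24 h and ZnSO4 at 3 h, which came next, overlapped. In bulk RNA a level per cell and the share of cells that express a gene cannot be told apart, and fewer cells of a type look the same as less RNA per cell.

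**Figure D1:**
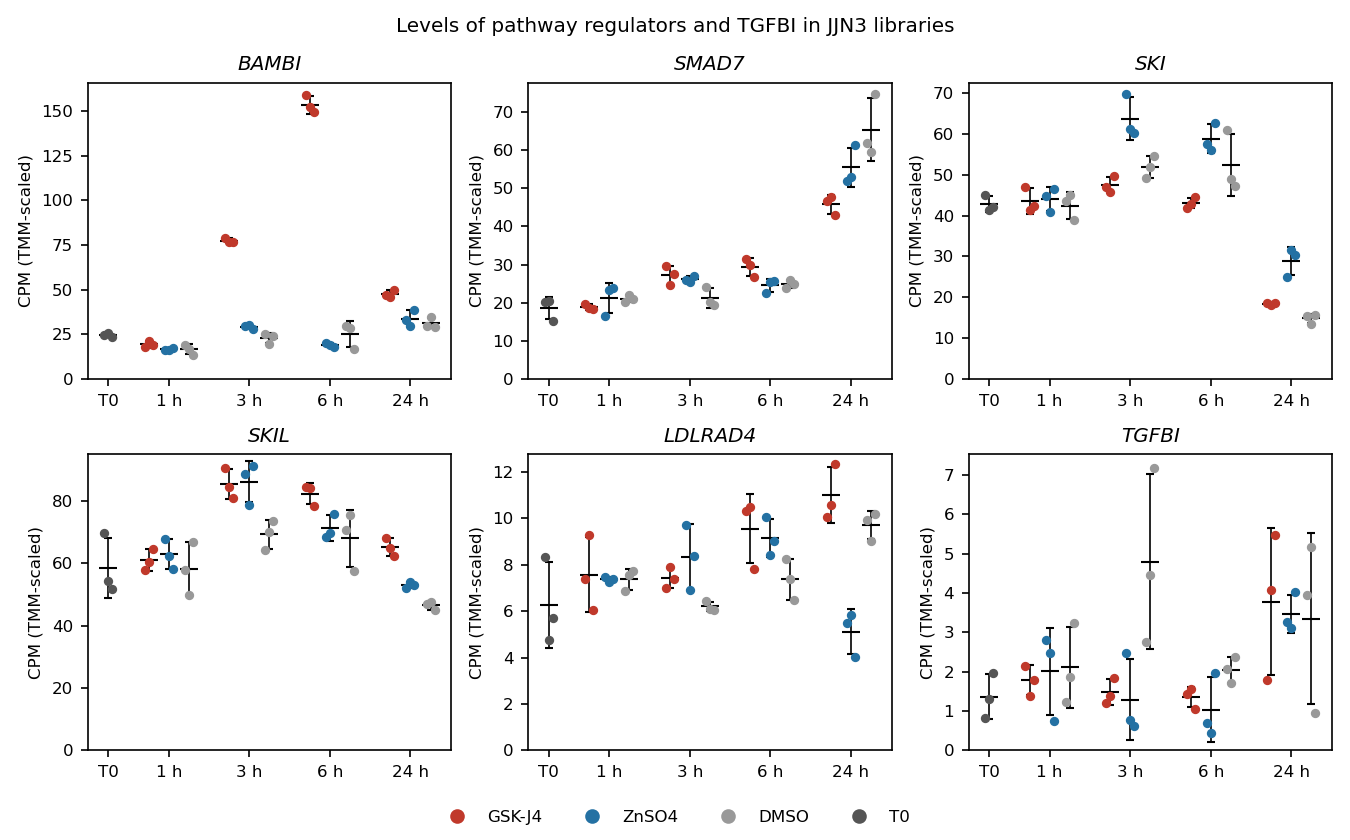
Levels of BAMBI, SMAD7, SKI, SKIL, LDLRAD4 and TGFBI in CPM (vertical axes, TMM-scaled) by time (horizontal axes), 1 point per library, with the mean and SD of each group as bars. BAMBI in GSK-J4 cells stands at 149 to 159 CPM at 6 h, while no ZnSO4, DMSO or T0 library at any time passes 38.7 CPM.

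ID1 was higher than DMSO with ZnSO4 at 1 h and 3 h and lower with GSK-J4 from 3 h on. At 1 h it had 5.75, 4.95 and 3.77 CPM in GSK-J4 cells, 8.76, 9.76 and 10.1 CPM in ZnSO4 cells and 4.67, 6.89 and 4.14 CPM in DMSO cells. At 3 h it had 3.98, 4.44 and 3.9 CPM in GSK-J4 cells, 9.57, 9.32 and 8.77 CPM in ZnSO4 cells and 7.22, 6.43 and 5.61 CPM in DMSO cells. All ZnSO4 libraries were above all DMSO libraries at both times, and at 3 h all GSK-J4 libraries were below them. At 6 h ID1 had 2.15, 2.41 and 1.91 CPM in GSK-J4 cells, 4.41, 7.96 and 6.88 CPM in ZnSO4 cells and 5.29, 5.68 and 6.33 CPM in DMSO cells, and at 24 h it had 4.31, 4.64 and 4.24 CPM in GSK-J4 cells, 6.25, 7.0 and 11.3 CPM in ZnSO4 cells and 8.83, 11.1 and 8.14 CPM in DMSO cells. The GSK-J4 libraries lay below both other groups at 6 h and 24 h, whereas ZnSO4 and DMSO overlapped. The log2FC of ID1 over DMSO was −0.14 ± 0.22, −0.66 ± 0.21, −1.40 ± 0.27 and −1.10 ± 0.21 with GSK-J4 at 1, 3, 6 and 24 h. With ZnSO4 it was 0.86 ± 0.19, 0.50 ± 0.19, 0.14 ± 0.22 and −0.21 ± 0.19, and the 1 h value ranged from 0.74 to 1.11 when 1 of the 6 libraries was left out.

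ID3, which lies on another chromosome than ID1, was lowest in GSK-J4 cells at 6 h. It had 1.43, 1.72 and 1.48 CPM in GSK-J4 cells, 3.7, 2.21 and 3.77 CPM in ZnSO4 cells and 4.85, 3.79 and 5.06 CPM in DMSO cells. These 3 groups did not overlap, with GSK-J4 lowest and DMSO highest. The log2FC over DMSO was −1.56 ± 0.32 with GSK-J4 and −0.47 ± 0.28 with ZnSO4. The 27 counts over the 3 GSK-J4 libraries at 6 h, against 87 over DMSO, set the precision. At 1 h and 3 h the GSK-J4 and DMSO libraries overlapped (log2FC −0.22 ± 0.28 and 0.16 ± 0.26), the second turning to −0.17 without replicate 2 of GSK-J4, and at 24 h they overlapped as well (log2FC −0.26 ± 0.27). With ZnSO4 the log2FC was 0.26 ± 0.26 at 1 h, 0.33 ± 0.26 at 3 h and −0.28 ± 0.29 at 24 h.

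ID2, the most abundant of the ID genes, followed a different course. It had 28, 24 and 22 CPM in GSK-J4 cells, 40.1, 43.9 and 38.5 CPM in ZnSO4 cells and 31.9, 30 and 29.2 CPM in DMSO cells at 3 h. At 6 h it had 34.8, 31.3 and 33.5 CPM in GSK-J4 cells, 43.7, 47.8 and 38.7 CPM in ZnSO4 cells and 34.5, 31.3 and 25.9 CPM in DMSO cells. ZnSO4 libraries were above the others at both times, while GSK-J4 libraries were below DMSO at 3 h and overlapped it at 6 h. At 24 h ID2 had 77.5, 68.6 and 71 CPM in GSK-J4 cells, 122, 122 and 122 CPM in ZnSO4 cells and 116, 108 and 121 CPM in DMSO cells. All 9 of these libraries lay above every earlier one, and GSK-J4 was the lowest of the 3 groups. The log2FC over DMSO with GSK-J4 was −0.14 ± 0.10, −0.31 ± 0.10, 0.12 ± 0.10 and −0.67 ± 0.08 at 1, 3, 6 and 24 h. With ZnSO4 it was −0.07 ± 0.10, 0.42 ± 0.10, 0.49 ± 0.10 and 0.09 ± 0.07.

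**Figure D2:**
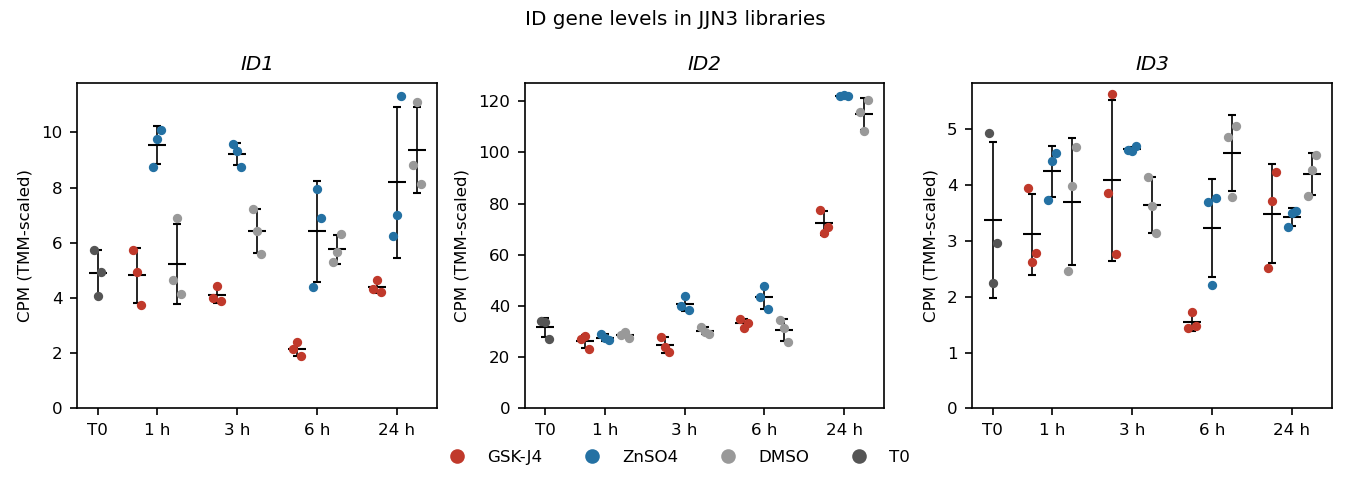
Levels of ID1, ID2 and ID3 in CPM (vertical axes, TMM-scaled) by time (horizontal axes), 1 point per library, with the mean and SD of each group as bars. ID1 in GSK-J4 cells lies at 1.91 to 2.41 CPM at 6 h, below all 6 ZnSO4 and DMSO libraries of that time, and ID2 is highest in the 24 h libraries of all 3 treatments.

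Among the inhibitors that act at the receptor, SMAD7 stayed within 0.34 of DMSO in log2FC before 24 h. At 3 h it had 29.6, 24.6 and 27.5 CPM in GSK-J4 cells, 26.1, 25.3 and 26.9 CPM in ZnSO4 cells and 24.1, 20.1 and 19.3 CPM in DMSO cells. At 24 h it had 46.6, 47.8 and 43.1 CPM in GSK-J4 cells, 52, 53.1 and 61.4 CPM in ZnSO4 cells and 61.8, 59.5 and 74.8 CPM in DMSO cells. Both treatments were above DMSO at 3 h and overlapped each other, and GSK-J4 libraries were above DMSO at 6 h too. At 24 h GSK-J4 libraries lay below both other groups, and ZnSO4 and DMSO overlapped. The log2FC with GSK-J4 over DMSO was −0.16 ± 0.12 at 1 h, 0.34 ± 0.11 at 3 h, 0.24 ± 0.11 at 6 h and −0.51 ± 0.09 at 24 h. With ZnSO4 it was 0.04 ± 0.12, 0.29 ± 0.12, −0.02 ± 0.12 and −0.23 ± 0.09.

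LDLRAD4 stood out for ZnSO4 at 24 h. It then had 10.1, 10.6 and 12.4 CPM in GSK-J4 cells, 5.5, 5.83 and 4.01 CPM in ZnSO4 cells and 9.91, 9.04 and 10.2 CPM in DMSO cells. The ZnSO4 libraries lay below all others of that time, and GSK-J4 and DMSO overlapped. The log2FC over DMSO was −0.91 ± 0.20 with ZnSO4 and 0.18 ± 0.16 with GSK-J4. At 3 h and 6 h all ZnSO4 libraries were above DMSO (log2FC 0.40 ± 0.18 and 0.31 ± 0.18), and with GSK-J4 the log2FC was 0.26 ± 0.18 and 0.39 ± 0.18, without overlap at 3 h only.

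SMAD6, the inhibitory SMAD of the BMP branch, was close to the limit of detection and was not tested. It had 45 counts over all 39 libraries and at most 3 in any of them. At 6 h it had 6 counts over the GSK-J4 libraries, 2 in each, 1 over ZnSO4 and 0 over DMSO, and T0 had 1. The counts at 1, 3 and 24 h were 5, 6 and 3 over GSK-J4, 4, 4 and 3 over ZnSO4 and 4, 3 and 5 over DMSO. A count of 0 allows up to 3 counts, which is 0.2805 to 0.69 CPM per library by library totals alone. No fold is given for this reason, and these limits cover counting error only.

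The corepressor genes SKI and SKIL differed from each other under GSK-J4. At 6 h SKI had 41.9, 42.9 and 44.5 CPM in GSK-J4 cells, 57.6, 56.2 and 62.8 CPM in ZnSO4 cells and 61, 49.1 and 47.2 CPM in DMSO cells. At 24 h it had 18.5, 18.2 and 18.7 CPM in GSK-J4 cells, 25, 31.5 and 30.2 CPM in ZnSO4 cells and 15.3, 13.4 and 15.7 CPM in DMSO cells. GSK-J4 libraries were below DMSO at 6 h and above it at 24 h, and at 24 h ZnSO4 libraries stood above both. The log2FC of SKI over DMSO with GSK-J4 was 0.03 ± 0.09, −0.12 ± 0.08, −0.29 ± 0.09 and 0.32 ± 0.12 at 1, 3, 6 and 24 h, the 6 h value being −0.16 without replicate 1 of DMSO. With ZnSO4 it was 0.06 ± 0.09, 0.29 ± 0.08, 0.17 ± 0.08 and 0.98 ± 0.12, and the 6 h value was 0.29 without replicate 1 of DMSO.

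SKIL was higher than DMSO with GSK-J4 from 3 h on. At 3 h it had 90.4, 84.4 and 80.9 CPM in GSK-J4 cells, 88.6, 78.8 and 91 CPM in ZnSO4 cells and 64.3, 69.9 and 73.6 CPM in DMSO cells, with both treatments above DMSO and overlapping each other. At 24 h it had 68.1, 64.7 and 62.3 CPM in GSK-J4 cells, 52, 54 and 52.9 CPM in ZnSO4 cells and 47, 47.5 and 44.9 CPM in DMSO cells. These 3 groups did not overlap, with GSK-J4 highest and DMSO lowest. The log2FC with GSK-J4 was 0.08 ± 0.09, 0.30 ± 0.08, 0.28 ± 0.09 and 0.48 ± 0.09 at 1, 3, 6 and 24 h, the 6 h value being 0.17 without replicate 3 of DMSO. With ZnSO4 it was 0.11 ± 0.09, 0.32 ± 0.09, 0.07 ± 0.09 and 0.19 ± 0.10.

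**Figure D3:**
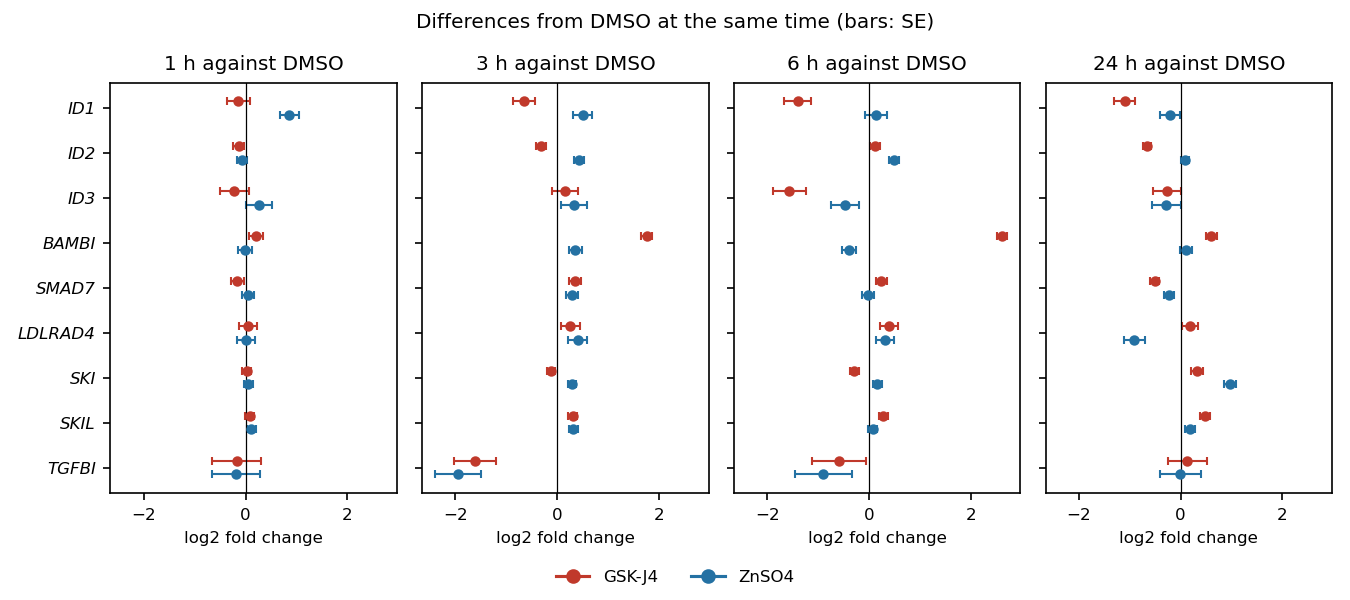
Log2FC of 9 genes over DMSO of the same time (horizontal axes), with GSK-J4 and ZnSO4 as separate points and the SE as bars, 1 panel per time. BAMBI under GSK-J4 at 6 h lies furthest to the right at 2.62, and ID3 under GSK-J4 lies furthest to the left at that time at −1.56.

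TGFBI, the matrix gene, was low in both treatments at 3 h. It had 1.21, 1.38 and 1.85 CPM in GSK-J4 cells, 2.48, 0.768 and 0.617 CPM in ZnSO4 cells and 2.76, 4.45 and 7.18 CPM in DMSO cells. Both treated groups lay below DMSO, whose replicate 3 was the highest of all 39 libraries. The log2FC was −1.61 ± 0.41 with GSK-J4, or −1.26 without that library, and −1.95 ± 0.45 with ZnSO4, or −2.69 without replicate 1 of ZnSO4. At the other times the log2FC with GSK-J4 was −0.18 ± 0.49 at 1 h, −0.58 ± 0.53 at 6 h and 0.13 ± 0.38 at 24 h, and with ZnSO4 −0.18 ± 0.47, −0.89 ± 0.56 and −0.00 ± 0.40, the 6 h value being −1.78 without replicate 3 of ZnSO4. The GSK-J4 and DMSO libraries did not overlap at 6 h either, with 1.43, 1.55 and 1.06 CPM in GSK-J4 cells and 2.06, 1.72 and 2.37 CPM in DMSO cells.

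Stromal markers were also higher in the DMSO library with the most TGFBI. Summed over COL1A1, COL1A2, COL3A1 and DCN, they stood at 16.4 to 25.8 CPM in GSK-J4 cells, 12.6 to 29 CPM in ZnSO4 cells and 22.1 to 78.8 CPM in DMSO cells at 3 h, and the highest value was in the same DMSO library as the highest TGFBI. At 6 h, where TGFBI was lower with GSK-J4 without overlap, the sum was 21 to 36.2 CPM in GSK-J4 cells, 9.17 to 21.8 CPM in ZnSO4 cells and 21.4 to 34.2 CPM in DMSO cells, so GSK-J4 and DMSO overlapped. At 24 h they stood at 46.0 to 89.9 CPM in GSK-J4 cells, 39.8 to 50.3 CPM in ZnSO4 cells and 14.1 to 57.0 CPM in DMSO cells, and at 9.45 to 30.2 CPM in T0. None of the 4 was at 0 in more than 1 library, and that gene was DCN. On log2 scales the sum and TGFBI correlated with Pearson's r = 0.694 over the 30 libraries of T0 to 6 h (permutation p = 4e-05, adjusted 0.00072 over 18 relations) and Spearman's rho = 0.628 (permutation p = 0.00029, adjusted 0.0052), and r was 0.555 without the 2 libraries farthest from the median sum. Over the 9 libraries of 24 h r was 0.898 (exact permutation p = 0.0023, adjusted 0.021) and rho 0.9 (exact permutation p = 0.002, adjusted 0.018), and r was 0.541 without the 2 farthest. These libraries pool groups that also differ in treatment, and several of the genes were chosen from them. The shuffles ignored the groups, so the p-values do not measure how TGFBI and the sum vary together within a group. The 8 other genes tested the same way gave no adjusted p under 0.05. The lowest was for SMAD7 at 24 h (r = −0.752, exact permutation p = 0.018, adjusted 0.11), where r was 0.069 without the 2 farthest. With 9 libraries at 24 h, a missing call does not show that the sum and a gene are unrelated. The part of stromal RNA in the TGFBI result was not tested.

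**Figure D4:**
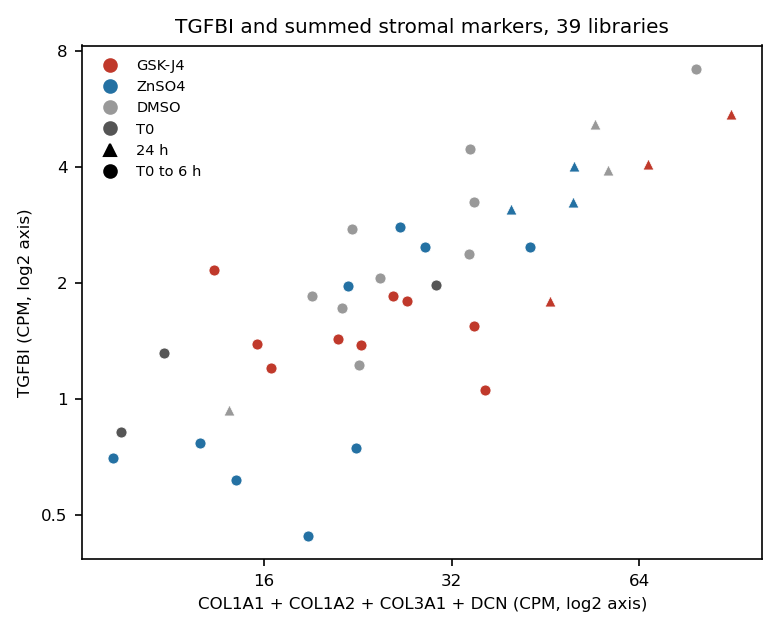
TGFBI in CPM (vertical axis, log2 scale) against the sum of COL1A1, COL1A2, COL3A1 and DCN in CPM (horizontal axis, log2 scale), 1 point per library, coloured by treatment, with triangles for 24 h and circles for T0 to 6 h. The DMSO library with the highest TGFBI of all 39, 7.18 CPM at 3 h, has 78.8 CPM of stromal markers.

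DMSO against T0 was not a contrast named in the choice of genes, and there they were tested with edgeR's quasi-likelihood test, adjusted over 14460 genes. Its DMSO libraries are also the baseline of the contrasts that chose the genes, so the values are not independent of that choice. Replicate 3 of T0 differed from replicates 1 and 2 (a chi-square of 7.325 and 5.208 per gene) more than any pair in another group (up to 3.30). Replicates 1 and 2 of T0 gave 3.15. At 24 h, ID2 rose to 115 ± 6.11 CPM in DMSO cells, against 31.6 ± 3.84 CPM in T0 cells (log2FC 1.84 ± 0.08, adjusted p = 1e-28). SMAD7 rose to 65.4 ± 8.23 CPM, against 18.6 ± 2.99 CPM in T0 (log2FC 1.78 ± 0.10, adjusted p = 1.6e-23), and no DMSO library of either gene overlapped T0. SKI fell to 15.3, 13.4 and 15.7 CPM in DMSO cells, against 45, 41.4 and 42 CPM in T0 cells (log2FC −1.54 ± 0.10, adjusted p = 1.9e-20), without overlap. ID1 rose as well (log2FC 0.94 ± 0.20, adjusted p = 3.2e-05), and so did LDLRAD4 (log2FC 0.62 ± 0.17, adjusted p = 0.0016), both without overlap. TGFBI rose (log2FC 1.39 ± 0.46, adjusted p = 0.0066) with overlapping libraries, and its call ended without replicate 2 of DMSO (log2FC 0.93), the stromal sum being as given above.

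Smaller changes passed for BAMBI, which rose (log2FC 0.34 ± 0.12, adjusted p = 0.0076), and SKIL, which fell (log2FC −0.34 ± 0.09, adjusted p = 0.0012). The BAMBI call ended with library totals as the only scaling (log2FC 0.12) and without replicate 2 of DMSO (0.26), and that of SKIL without replicate 1 of T0 (−0.19). ID3 did not pass, with 3.8, 4.26 and 4.54 CPM in DMSO cells and 4.93, 2.24 and 2.96 CPM in T0 cells (log2FC 0.30 ± 0.26, adjusted p = 0.32), though it passed without replicate 1 of T0, which was the highest (log2FC 0.72). Thus 6 of 9 genes rose and 2 fell, while 63.2% of all tested genes were called in this comparison (30.5% higher and 32.7% lower), and the median log2FC was 0.62 over the 9 genes and −0.02 over all tested genes. At 1, 3 and 6 h none of the 9 genes passed against T0 in edgeR with the filter on low counts, where few of all tested genes were called: 0.0346% at 1 h (0.0277% higher and 0.00692% lower), 0.0968% at 3 h (0.0553% higher and 0.0415% lower) and 0.0138% at 6 h (0.00692% in each direction). At unadjusted p under 0.05 there were 1112, 1872 and 1778 such genes. Without replicate 1 of T0, SKI and SKIL passed at 3 h (log2FC 0.31 and 0.38) and SKI, SKIL and SMAD7 at 6 h (0.34, 0.36 and 0.45). SKI also passed at 6 h without replicate 3 of DMSO (0.37), TGFBI at 3 h without replicate 1 of DMSO (2.1) and BAMBI at 1 h without replicate 1 of DMSO (−0.67). With no filter BAMBI passed at 1 h (−0.55) and TGFBI at 3 h (1.78).

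**Figure D5:**
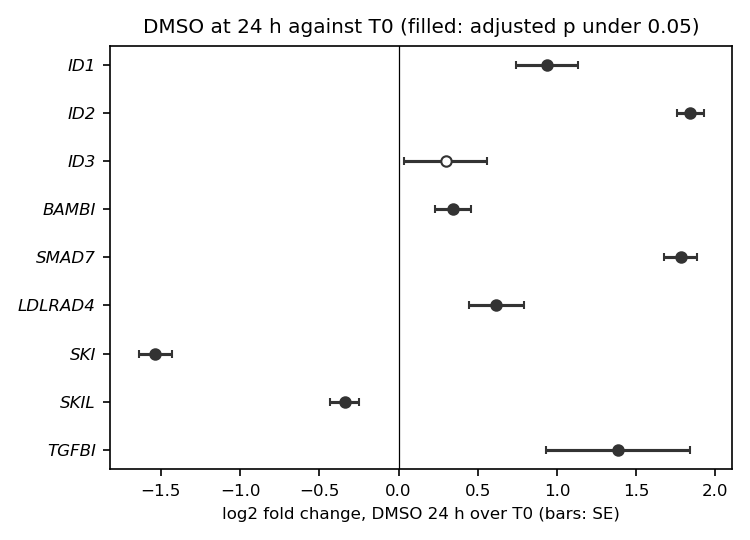
Log2FC of 9 genes in DMSO cells at 24 h over T0 (horizontal axis), with the SE as bars, filled points marking adjusted p under 0.05. ID2 at 1.84 and SMAD7 at 1.78 lie furthest right, SKI at −1.54 furthest left, and ID3 is the open point.

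Counted by the same threshold in the contrasts that chose them, with GSK-J4 over DMSO 0 of the 9 genes passed at 1 h, where 0.104% of all tested genes were called (0.0346% higher and 0.0692% lower). At 3 h 2 were higher and 1 lower, beside 2.38% of all tested genes (1.45% higher and 0.927% lower). At 6 h 2 were higher and 3 lower, beside 20.4% (9.83% higher and 10.5% lower), and at 24 h 3 were higher and 3 lower, beside 32% (15.2% higher and 16.8% lower). With ZnSO4 over DMSO 1 was higher at 1 h, beside 0.678% of all tested genes (0.498% higher and 0.18% lower), and 4 were higher and 1 lower at 3 h, beside 10.8% (6.59% higher and 4.16% lower). At 6 h 1 was higher and 1 lower, beside 9.32% (4.81% higher and 4.51% lower), and the same counts held at 24 h, beside 9.56% (3.98% higher and 5.58% lower). Because these contrasts chose several of the genes, nothing is read from the counts. Of these 24 calls 10 ended in at least 1 refit: SKI at 6 h and 24 h, SKIL at 3 h and 6 h and TGFBI at 3 h with GSK-J4, and ID1 at 1 h, BAMBI at 3 h and 6 h, and SKI and SKIL at 3 h with ZnSO4.

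Set directly against each other, the compounds differed most in BAMBI at 3 h and 6 h, in ID1 at 1 h and in LDLRAD4 at 24 h, among the 9 genes. BAMBI had a log2FC of GSK-J4 over ZnSO4 of 1.40 ± 0.10 at 3 h, 3.01 ± 0.11 at 6 h and 0.50 ± 0.11 at 24 h. ID1 was lower with GSK-J4 than with ZnSO4 at all 4 times, by −1.0 ± 0.20, −1.16 ± 0.19, −1.54 ± 0.27 and −0.89 ± 0.23 in log2FC, the last −0.61 without replicate 3 of ZnSO4. ID2 was lower with GSK-J4 at 3 h (−0.74 ± 0.09), 6 h (−0.37 ± 0.10) and 24 h (−0.75 ± 0.08), and SKI likewise (−0.42 ± 0.08, −0.46 ± 0.09 and −0.65 ± 0.12). All of these groups were free of overlap. LDLRAD4 was higher with GSK-J4 at 24 h (1.09 ± 0.20) and SMAD7 lower (−0.28 ± 0.10), again without overlap. Of the 9 genes 1 was past the threshold and lower at 1 h, where 0.664% of all tested genes were called (0.138% higher and 0.526% lower). At 3 h 1 was higher and 3 lower, beside 10.1% (3.99% higher and 6.12% lower), and at 6 h 1 was higher and 4 lower, beside 18.4% (8.53% higher and 9.88% lower). At 24 h 3 were higher and 4 lower, beside 24.5% (12% higher and 12.5% lower). These libraries also chose the genes, so nothing is read from these counts either, and the calls of ID1 at 1 h, ID3 at 6 h, and ID1, SKIL and SMAD7 at 24 h each ended in at least 1 refit.

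Beyond these genes, 95 others of the pathway were listed by role, and 74 of them could be tested with edgeR. With GSK-J4 over DMSO 2 rose and 2 fell at 3 h, 14 rose and 11 fell at 6 h, and 10 rose and 12 fell at 24 h, while none passed at 1 h. The 25 called at 6 h are 33.8% of the 74, beside 20.4% of all tested genes, and were 16 without replicate 3 of DMSO. At 24 h the 22 called are 29.7%, beside 32% of all tested genes, and at 3 h the 4 called are 5.41%, beside 2.38%. With ZnSO4 over DMSO 1 rose at 1 h, 5 rose and 5 fell at 3 h, 5 rose and 2 fell at 6 h, and 5 rose and 6 fell at 24 h. These are 1.35, 13.5, 9.46 and 14.9% of the 74 at 1, 3, 6 and 24 h, beside 0.678, 10.8, 9.32 and 9.56% of all tested genes, so that the share at 6 h was that of all genes. Left-out libraries moved these ZnSO4 counts to 5 at 3 h (without replicate 3 of ZnSO4), 2 at 6 h (without replicate 3 of ZnSO4) and 6 at 24 h (without replicate 1 of ZnSO4).

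Among 12 ligand genes tested, 2 rose and 4 fell with GSK-J4 at 6 h, or 50%, beside 20.4% of all tested genes. INHBE, which encodes the activin beta E subunit, had 65.5, 65.1 and 69.9 CPM in GSK-J4 cells, 5.29, 3.98 and 3.77 CPM in ZnSO4 cells and 9.41, 7.75 and 4.11 CPM in DMSO cells. No GSK-J4 library came near the others (log2FC 3.22 ± 0.15, adjusted p = 7.4e-27). INHBE was also higher with GSK-J4 at 3 h (log2FC 1.86 ± 0.17, adjusted p = 6.1e-13) and 24 h (log2FC 2.48 ± 0.33, adjusted p = 8.3e-09). INHBC, the activin beta C subunit, rose to 2.32 ± 0.175 CPM, against 0.754 ± 0.417 CPM in DMSO cells (log2FC 1.63 ± 0.49, adjusted p = 0.011), and the call ended without replicate 1 of DMSO (log2FC 1.22). TGFB1, the main TGF-beta ligand of blood cells, fell to 113 ± 5.87 CPM, against 149 ± 13.5 CPM in DMSO at 6 h (log2FC −0.41 ± 0.08, adjusted p = 2.8e-05), and was lower at 24 h too (log2FC −0.48 ± 0.08, adjusted p = 7e-07). The other 3 that fell at 6 h were BMP6 (log2FC −0.38 ± 0.07), BMP7 (−0.44 ± 0.08) and BMP8B (−0.26 ± 0.08), all BMP ligands, with the call of BMP8B ending without replicate 2 of GSK-J4 (−0.23). At 24 h BMP2 fell (log2FC −0.85 ± 0.26, adjusted p = 0.0092) and INHBE was the 1 ligand that rose, beside 4 that fell. The ligand genes called at 24 h are 41.7% of the 12, beside 32% of all tested genes.

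Of 12 receptor genes tested 3 rose with GSK-J4 at 6 h and none fell: the type II receptors ACVR2A (log2FC 0.74 ± 0.22) and BMPR2 (0.37 ± 0.12), and the BMP coreceptor RGMB (0.60 ± 0.13). At 24 h BMPR2 rose (log2FC 0.55 ± 0.14) and RGMB fell (−0.32 ± 0.12). The receptor genes called are 25% of the 12 at 6 h and 16.7% at 24 h, beside 20.4% and 32% of all tested genes. The calls of ACVR2A at 6 h (0.66 without replicate 2 of GSK-J4), of BMPR2 at 6 h (0.27 without replicate 3 of GSK-J4) and of RGMB at 24 h (−0.22 without replicate 2 of GSK-J4) ended when 1 library was left out, the second also without a filter (0.35) and the last with library totals (−0.22). Of 5 signalling SMAD genes tested, SMAD9 rose at 6 h (log2FC 1.12 ± 0.42, adjusted p = 0.049) with few counts, at 2.75 ± 0.409 CPM in GSK-J4 cells and 1.27 ± 0.283 CPM in DMSO cells, and the call ended whichever of the 6 libraries was left out (log2FC 0.98 to 1.31) and without a filter (1.11). At 24 h SMAD2 (log2FC 0.30 ± 0.07, adjusted p = 0.00024) and SMAD4 (log2FC 0.30 ± 0.06, adjusted p = 0.00011) rose slightly. The signalling SMAD genes called are 20% at 6 h and 40% at 24 h, beside 20.4% and 32% of all tested genes. Of 11 carrier and antagonist genes 2 rose at 24 h and none fell (18.2%, beside 32% of all tested genes). One was ITGB8, the integrin subunit that frees latent TGF-beta (log2FC 0.79 ± 0.08, adjusted p = 8.8e-13). Of 18 intracellular regulators 2 rose and 3 fell at 6 h (27.8%, beside 20.4% of all tested genes). Among them PMEPA1, a relative of LDLRAD4, fell at 6 h (log2FC −0.38 ± 0.12) and rose at 24 h (0.52 ± 0.15). These 2 calls ended without replicate 3 of DMSO at 6 h (−0.27), replicate 1 of GSK-J4 at 6 h (−0.35) and replicate 2 of GSK-J4 at 24 h (0.38).

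Of 13 other target genes tested with GSK-J4, 3 rose and 4 fell at 6 h and 1 rose and 4 fell at 24 h. These are 53.8% and 38.5%, beside 20.4% and 32% of all tested genes. CDKN1A, which encodes the cell cycle inhibitor p21, rose to 21.9 ± 4.36 CPM, against 8.76 ± 0.564 CPM in DMSO at 24 h (log2FC 1.32 ± 0.17, adjusted p = 3.3e-09). JUNB, an AP-1 subunit, fell at 6 h (log2FC −0.53 ± 0.08, adjusted p = 6.3e-07). HEY1, a repressor that also answers Notch, was lower at 3 h (log2FC −0.61 ± 0.15, adjusted p = 0.0087), 6 h (log2FC −0.49 ± 0.16, adjusted p = 0.019) and 24 h (log2FC −0.59 ± 0.13, adjusted p = 0.00018), the calls at 3 h and 6 h ending when 1 of several libraries was left out (log2FC −0.50 at 3 h without replicate 2 of DMSO and −0.41 at 6 h without replicate 1 of DMSO). Of the 3 E protein genes, whose products the ID proteins bind, TCF4 rose at 6 h (log2FC 0.33 ± 0.07, adjusted p = 0.00012) and 24 h (log2FC 0.18 ± 0.07, adjusted p = 0.034), TCF12 rose at 6 h (log2FC 0.27 ± 0.08, adjusted p = 0.0088) and TCF3 fell at 24 h (log2FC −0.17 ± 0.05, adjusted p = 0.009). The TCF12 call ended without replicate 3 of DMSO (0.22), the 24 h call of TCF4 when any of 5 libraries was left out (0.11 without replicate 3 of DMSO) or the filter was dropped (0.13), and that of TCF3 with library totals as the only scaling (−0.08).

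With ZnSO4 over DMSO, other target genes were the 1 call at 1 h, 5 of 10 at 3 h, 2 of 7 at 6 h and 6 of 11 at 24 h. These are 7.69, 38.5, 15.4 and 46.2% of the 13 tested, beside 0.678, 10.8, 9.32 and 9.56% of all tested genes. JUNB was the 1 gene that rose at 1 h (log2FC 0.31 ± 0.07, adjusted p = 0.0092), a call that ended when any of 4 libraries was left out (0.26 without replicate 1 of DMSO). CDKN1A rose to 9.47 ± 1.97 CPM, against 3.21 ± 0.80 CPM in DMSO at 6 h (log2FC 1.53 ± 0.24, adjusted p = 3.9e-06), and it was higher at 24 h (log2FC 0.76 ± 0.19, adjusted p = 0.004). BHLHE40, a helix-loop-helix repressor, rose at 3 h (log2FC 0.62 ± 0.12, adjusted p = 4.8e-05), and GADD45B, a stress gene, rose at 24 h (log2FC 0.49 ± 0.06, adjusted p = 4.3e-08). INHBE rose at 3 h (log2FC 0.75 ± 0.20, adjusted p = 0.0062), less than with GSK-J4 at that time (log2FC of GSK-J4 over ZnSO4 1.11 ± 0.15, adjusted p = 2.2e-08), and its call ended without replicate 2 of DMSO (0.52). FN1, fibronectin (log2FC −1.49 ± 0.40, adjusted p = 0.0063), and COL1A1 (log2FC −1.23 ± 0.38, adjusted p = 0.023) fell at 3 h, and both calls ended without replicate 3 of DMSO (log2FC −0.94 and −0.58), the library with the highest stromal sum before 24 h, and with DESeq2 (−1.48 and −1.23). RGMB fell at 24 h (log2FC −0.42 ± 0.12, adjusted p = 0.017), and so did HEY1 (log2FC −0.40 ± 0.13, adjusted p = 0.036) and CCN2 (log2FC −1.16 ± 0.39, adjusted p = 0.045). These 3 calls ended when single libraries were left out (−0.30 for RGMB, −0.34 for HEY1 and −1.03 for CCN2, each without replicate 3 of ZnSO4), and that of HEY1 also with DESeq2 (−0.40).

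Directly compared, 20 of the 74 differed between GSK-J4 and ZnSO4 at 6 h (8 higher and 12 lower) and 21 at 24 h (12 higher and 9 lower), against 10 at 3 h (6 without replicate 3 of ZnSO4) and 2 at 1 h. These are 27% at 6 h, 28.4% at 24 h, 13.5% at 3 h and 2.7% at 1 h, beside 18.4, 24.5, 10.1 and 0.664% of all tested genes. INHBE had the largest difference at 6 h (log2FC 3.93 ± 0.17, adjusted p = 2.6e-28). NBL1, which encodes a secreted BMP antagonist, was lower with GSK-J4 than with ZnSO4 at 6 h (log2FC −0.89 ± 0.24, adjusted p = 0.0054) and 24 h (log2FC −1.18 ± 0.23, adjusted p = 5.5e-05). GDF11, a TGF-beta family ligand, was lower at 6 h (log2FC −0.67 ± 0.17, adjusted p = 0.0019), and ACVR1C, a type I receptor, at 24 h (log2FC −1.28 ± 0.46, adjusted p = 0.032), a call that ended without replicate 2 of ZnSO4 (−0.55). Of 5 signalling SMAD genes 4 were higher with GSK-J4 at 24 h and none lower, or 80%, beside 24.5% of all tested genes (12% higher).

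In DMSO at 24 h against T0, more pathway genes were called than with either compound over DMSO at any time, with 26 genes higher and 22 lower than T0 of 74 tested, or 64.9%, beside 63.2% of all tested genes. Of 13 other target genes 12 rose and 1, CDKN2B, fell, while of all tested genes 30.5% were higher and 32.7% lower. GADD45B rose to 216 ± 5.09 CPM, against 31.6 ± 4.77 CPM in T0 (log2FC 2.80 ± 0.08, adjusted p = 1.2e-39), and BHLHE40 to 120.4 ± 7.07 CPM, against 23.3 ± 2.99 CPM (log2FC 2.35 ± 0.10, adjusted p = 1.7e-30). Of 12 ligand genes 7 fell and none rose, among them INHBE (log2FC −2.77 ± 0.30, adjusted p = 3.9e-12) and BMP4 (log2FC −1.93 ± 0.30, adjusted p = 9.6e-08), and of 5 signalling SMAD genes 3 fell, SMAD9 most (log2FC −2.25 ± 0.63, adjusted p = 0.0014). The genes that fell are 58.3% of the ligand and 60% of the signalling SMAD genes tested, beside 32.7% of all tested genes. FN1 and COL1A1 are among the 12 that rose, the call of FN1 ending with DESeq2 (log2FC 1.05) and without replicate 1 of DMSO (0.83), and the stromal sum was 14.1 to 57.0 CPM in DMSO at 24 h and 9.45 to 30.2 CPM in T0. The part of stromal RNA in this count was not tested.

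Across the 13 group means of log2 CPM, which share their libraries and span the step between 6 and 24 h, ID2 and SMAD7 were the most alike of the 9 genes (Pearson's r = 0.928), and ID1 and ID3 came next (r = 0.794), while SKI ran opposite to SMAD7 (r = −0.813) and to ID2 (r = −0.764). ID1 and BAMBI gave r = −0.67. Among all tested genes with a symbol and an average log2 CPM of at least 1, the gene most like BAMBI was IL6ST (r = 0.936), followed by RBBP8 (r = 0.934). ID1 was most like NRARP (r = 0.922) and ZNF581 (r = 0.919), ID2 most like ALDH9A1 (r = 0.991) and ZFP36L1 (r = 0.988), and ID3 most like NAAA (r = 0.866) and DNAJA2 (r = 0.848). SMAD7 was most like ADNP (r = 0.982) and PI4KB (r = 0.978), SKI most like SERAC1 (r = 0.982) and NAB1 (r = 0.973), and SKIL most like CEP192 (r = 0.967) and KIAA0232 (r = 0.955). LDLRAD4 was most like MARK1 (r = 0.845) and ELK3 (r = 0.825), and TGFBI most like SRSF3P1 (r = 0.91) and TMX1 (r = 0.879). These values describe 13 group means and are not tested.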

How the data were processed

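RNA was sequenced from 39 libraries of JJN3 cells. The treatment protocol in the labels omits the 1 h time that sample labels give. Per the labels, Trizol was used for RNA and the NEBNext Ultra kit for libraries. Per the submitters' processing notes, alignment by the authors was to hg19 with HISAT2 2.1.0. How reads were counted (tool, annotation, strand) is not given in the sources used here, and neither are doses. The counts that the authors deposited are unscaled whole numbers per Ensembl gene. Of 57773 identifiers 51996 took a symbol from a name table and 342 from GENCODE 29 only, whose union exon lengths gave CPM per kb.

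Groups came from the labels' treatment and time, and replicates were numbered in accession order. All libraries were fitted together with edgeR 4.0.16 in R 4.3.3 (TMM factors, 1 coefficient per group, a minimum count of 10 in filterByExpr, quasi-likelihood F-tests, Benjamini-Hochberg adjustment over 14460 genes within a comparison, calls at adjusted p under 0.05). The fit had 26 residual degrees of freedom and a biological coefficient of variation of 4.8%. Standard errors were taken as |log2FC| divided by the root of the F statistic.

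The 10 genes and the pathway lists, drawn from general knowledge of the pathway, were chosen with earlier results of these data known. By rule the text names the 10 genes, per comparison up to 3 called pathway genes in each direction with the largest log2FC, and for each of the 10 that was tested the 2 genes with an average log2 CPM of at least 1 most correlated with it over group means. Other pathway genes, among them ACVR2A, BMPR2, SMAD2, SMAD4, PMEPA1 and the E protein genes, were named after their values were seen. Replicate pairs were compared gene by gene with counting noise, and no pair was alike within it, the pairs with replicate 3 of T0 differing most. Tested on simulated counts for GSK-J4 against DMSO at 6 h over 14298 genes, the share of altered genes called was 74.6% at 1.5-fold (67 genes), 97.2% at 2-fold (71 genes) and 100% at 4-fold (62 genes). Of 190 calls 9 fell on unaltered genes. Only genes with a mean above 2 CPM in DMSO at 6 h were altered, so the shares do not speak for lower genes. The simulated spread followed the trend over genes and had no part particular to a gene. Alternatives were RLE size factors, library totals alone, no filter, DESeq2 1.42.0, only the groups compared, and each library left out. Promoter windows were matched by symbol in a RefSeq table of GRCh38.p14, a build other than that of the alignment, and no coordinate of the counts is used. Some pathway genes that the rule would name are not reported here.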

Additional observations from a re-analysis of the deposited data

Results flagged for a closer look

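For 9 pairs of times, a gene of the 10 had all 3 treated libraries above all DMSO libraries at one time and below them at another. The differences between the log2FC values were not tested. The share of all tested genes with such pairs was not counted, so nothing is read from the number. Some pairs rest on values near their SE, as SMAD7 with GSK-J4 at 1 h (−0.16 ± 0.12) and ID3 with ZnSO4 at 3 h (0.33 ± 0.26) and 24 h (−0.28 ± 0.29). ID3 with ZnSO4 was higher at 3 h and lower at 6 h (a difference of 0.80) and at 24 h (0.61). SKI with GSK-J4 was higher at 24 h and lower at 6 h (0.61). SMAD7 with GSK-J4 was higher at 3 h than DMSO and lower at 1 h (0.50) and 24 h (0.85), and higher at 6 h and lower at 1 h (0.40) and 24 h (0.75). LDLRAD4 with ZnSO4 was lower at 24 h and higher at 3 h (1.31) and 6 h (1.22).

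Of the other pathway genes, only those with the largest called changes in a comparison were scanned, and the same held for 3 of them. BHLHE40 with GSK-J4 was lower at 24 h and higher at 3 h (0.78) and 6 h (0.61). ITGB8 with ZnSO4 was lower at 3 h and higher at 6 h (0.46) and 24 h (0.59). RGMB with GSK-J4 was higher at 6 h and lower at 24 h (0.92). These differences were not tested.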

How the results depend on the processing

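The 24 log2FC values of the genes that passed the threshold over DMSO kept their sign in 264 of 264 refits. These values were picked by passing, and the refits reuse all or most of the same libraries, so nothing is read from the kept sign. Of these 24 calls 10 ended in at least 1 refit. SKI with GSK-J4 at 24 h (log2FC 0.24 to 0.34 there), BAMBI with ZnSO4 at 3 h (0.26 to 0.39) and BAMBI with ZnSO4 at 6 h (−0.25 to −0.44) each ended in 7. Of 181 calls of other pathway genes 98 were kept in every refit that gave an adjusted p, and 1 reversed, TCF4 at 24 h of DMSO against T0 (log2FC −0.036 with library totals, 0.19 otherwise). Fitting only the groups compared gave 1072 genes called with GSK-J4 at 3 h (344 otherwise) and 10 other pathway genes (4). In DMSO against T0 at 1, 3 and 6 h, where 5, 14 and 2 genes were called, it gave 0, 0 and 0. No filter gave 31, 78 and 60 genes there with 1, 3 and 2 pathway genes, and 2 pathway genes with ZnSO4 at 1 h. DESeq2 gave 13, 140 and 45 genes, RLE factors 0 at 1 h, and library totals 0 at 1 h and 0 at 6 h. RLE factors and library totals each left 1 pathway gene between GSK-J4 and ZnSO4 at 1 h.

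Leaving out 1 library gave, against T0, 1 to 58 genes at 1 h, 1 to 703 at 3 h and 0 to 801 at 6 h, the highest 2 without replicate 1 of T0, with 0 to 4 and 0 to 6 pathway genes at 3 h and 6 h. It gave 876 to 1162 genes with ZnSO4 at 6 h (876 without replicate 3 of ZnSO4) and 809 to 1141 at 24 h (809 without replicate 2 of ZnSO4). Pathway genes came to 16 to 25 with GSK-J4 at 6 h, 0 to 1, 5 to 11, 2 to 7 and 6 to 8 with ZnSO4 at 1, 3, 6 and 24 h, and 1 to 3 and 6 to 9 between the compounds at 1 h and 3 h. Library totals moved the median log2FC of all genes to −0.24 in DMSO at 24 h against T0 (2769 genes higher and 6519 lower, against 4406 and 4734) and to 0.11 with GSK-J4 at 24 h (3256 and 1526, against 2205 and 2424). They gave 1791 higher and 1117 lower with GSK-J4 at 6 h, 758 and 947 with ZnSO4 at 3 h, and 1270 and 638 between the compounds at 3 h. No paired analysis was possible because the labels number the samples in 1 run and pair none. Depth limits ID3, TGFBI and SMAD6, whose 39 libraries hold 943, 548 and 45 counts. The causes of these shifts were not tested.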
